A study of Mus musculus with 11 samples.

Results

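Smooth muscle contractile genes encode the proteins with which the muscle cells of the vessel wall tighten. The 10 genes followed here were Acta2, Myh11, Myl9, Tagln, Cnn1, Lmod1, Des, Pln, Mustn1 and Myocd, out of 32285 genes measured, and they were chosen by name, with earlier results of these data known. Their UMIs, the distinct molecules counted in single-cell RNA sequencing, were summed per mouse and cell population and compared over 4 groups. The sham + WT group held 3 wild-type mice after a sham operation, and the MCAO/R + WT group held 2 wild-type mice after middle cerebral artery occlusion and reperfusion, a model of stroke in which the artery is blocked and then reopened. The sham + Lrg1-/- and MCAO/R + Lrg1-/- groups held 3 mice each that lacked Lrg1, a secreted leucine-rich glycoprotein, in every cell from the germline on. Both strains had a C57BL/6 background, the methods describe the wild-type mice as young adult males, and cells came from the brain with 1 library per mouse. The methods name the substrain of the knockout mice in differing ways and give none for the wild-type mice. The methods appear to give the knockout mice a higher age than the wild-type mice, and the sex of the knockout mice is not given in the sources used here. The knockout and the wild-type mice came from different suppliers, so genotype, origin and any difference in age or substrain cannot be told apart. The labels do not give the time of reperfusion.

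Arteries and arterioles of the brain are wrapped in smooth muscle cells, and capillaries in pericytes, which carry less of the contractile apparatus. Contraction starts when calcium activates the kinase that phosphorylates the myosin light chain, whereupon smooth muscle myosin pulls on smooth muscle actin. The genes of this apparatus share a control by serum response factor, which binds a short DNA motif called the CArG box, and by its partner myocardin. Injured vessels are known for muscle cells that lower these genes and take up matrix and inflammatory genes, a change called phenotype modulation.

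In the GRCm38 annotation the genes of the plus strand are Cnn1 (chr9:22099216-22109630), Myl9 (chr2:156775420-156781658), Des (chr1:75360329-75368579), Pln (chr10:53337667-53345987), Mustn1 (chr14:30879200-30881610) and Lmod1 (chr1:135324807-135368065). The genes of the minus strand are Acta2 (chr19:34241090-34255590), Myh11 (chr16:14194535-14291372), Tagln (chr9:45929619-45936058) and Myocd (chr11:65176561-65269989), and each is protein coding. The regions just before 4 of the genes are shown because Acta2 and Myl9 hold CArG boxes or near matches and changed with surgery, whereas Pln, with the widest change with surgery, and Cnn1, with the widest difference between genotypes, held neither. Each is the 250 bases that precede the start given by RefSeq on GRCm38.p6, on the strand of the gene. RefSeq starts differ from the gene bounds above, so each window runs into those bounds, and most of the Acta2 window lies inside them. In the sequences, capitals mark CArG boxes and sequences that depart from one at a single middle base. The regions are chr19:34255374-34255623 on the minus strand for Acta2, and on the plus strand chr2:156775214-156775463 for Myl9, chr9:22099003-22099252 for Cnn1 and chr10:53337436-53337685 for Pln.
Acta2: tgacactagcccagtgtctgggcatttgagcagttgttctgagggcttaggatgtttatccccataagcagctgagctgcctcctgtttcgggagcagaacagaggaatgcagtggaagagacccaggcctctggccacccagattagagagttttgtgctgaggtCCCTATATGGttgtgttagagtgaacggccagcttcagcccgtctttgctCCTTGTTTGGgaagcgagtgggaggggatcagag
Myl9: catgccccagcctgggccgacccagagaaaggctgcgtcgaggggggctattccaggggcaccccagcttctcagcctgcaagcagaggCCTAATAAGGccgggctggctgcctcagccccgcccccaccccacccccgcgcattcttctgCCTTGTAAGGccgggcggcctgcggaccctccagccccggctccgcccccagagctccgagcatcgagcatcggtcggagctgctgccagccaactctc
Cnn1: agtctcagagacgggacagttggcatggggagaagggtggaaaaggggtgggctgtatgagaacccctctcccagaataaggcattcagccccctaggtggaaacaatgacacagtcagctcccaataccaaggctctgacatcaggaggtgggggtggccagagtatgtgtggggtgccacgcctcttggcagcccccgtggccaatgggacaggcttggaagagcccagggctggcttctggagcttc
Pln: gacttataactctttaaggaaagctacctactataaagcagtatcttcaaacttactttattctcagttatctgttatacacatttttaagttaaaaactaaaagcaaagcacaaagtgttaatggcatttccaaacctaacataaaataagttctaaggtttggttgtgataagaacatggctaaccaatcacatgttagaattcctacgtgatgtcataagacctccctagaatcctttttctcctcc
Myl9 held 1 CArG box, 161 to 152 bases before the start, and 1 near match 99 to 90 bases before it. Acta2 held 2 near matches, 84 to 75 and 34 to 25 bases before the start. Among all 32851 RefSeq promoters of 300 bases, which also take in the first 50 bases of the transcript, a CArG box on either strand was found in 1.63%, and a box or near match in 9.98%. Of the 10 genes, 7 were matched to this promoter set. Cnn1, Des, Pln, Mustn1 and Lmod1 held no match in these windows, which says nothing of boxes elsewhere, and Myh11, Tagln and Myocd were not matched.

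The libraries held 155804 barcodes in all, of which 125344 were used as cells, and 37159497 to 171813031 UMIs each. Lrg1 was counted first in endothelial-like cells as a check of the genotype. It stood at 7.03 to 24.6 UMIs per 1000000 UMIs of the population (CPM) in the sham + WT mice and at 440 to 538 CPM in the MCAO/R + WT mice, and no UMI was found among 31037649 in the sham + Lrg1-/- group or among 52112217 in the MCAO/R + Lrg1-/- group, which allows up to 0.0967 and 0.0576 CPM. Smooth muscle-like cells, named from markers that exclude the 10 genes, numbered 3234, with 73 to 586 per library and median depths of 6920 to 12402 UMIs per cell. All 10 of their markers, among them Map3k7cl, Casq2 and Kcnmb1, were found in every group, with a summed level of 7026.8 to 12526.3 CPM against 852 to 1772.2 CPM in pericyte-like cells. Transcripts of red blood cells and choroid plexus, listed as 14 markers, made up 0.0121 to 0.112% of the UMIs of smooth muscle-like cells in the wild-type libraries and 1.23 to 2.65% in the Lrg1-/- libraries. The red blood cell marker Slc4a1 was at 0 in the wild-type libraries. The ranges of the genotypes did not overlap, so the comparisons of genotypes below were made between libraries that differ in these transcripts, whose part in the results was not tested.

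The 10 genes marked smooth muscle-like cells more than any other population. Of their 1598296 UMIs in all used cells, 66.4% lay in smooth muscle-like cells, 12.1% in a population led by haemoglobin transcripts, 5.85% in unnamed clusters that mixed mural with other markers, 4.39% in choroid plexus epithelium-like cells, 3.62% in endothelial-like cells and 0.887% in pericyte-like cells. These shares pool all libraries and so depend on their make-up, since 24567 of the 30453 haemoglobin-led cells came from the MCAO/R + Lrg1-/- group. Each gene had its highest mean in smooth muscle-like cells among 14 populations, and in each the lowest smooth muscle-like library stood above the highest library of the next population. These levels were described without a test, since populations were defined on the same cells.
Acta2, the smooth muscle actin, had a mean of 12915.3 ± 2990.1 CPM (SD, n = 11 mice) in smooth muscle-like cells, and the next population was the haemoglobin-led cells with 1091.8 ± 941 CPM (SD, n = 11). Myl9, the regulatory light chain of smooth muscle myosin, had 4600.7 ± 1378.0 CPM (SD, n = 11), and pericyte-like cells came next with 1093.7 ± 389 CPM (SD, n = 8). Relative to smooth muscle-like cells, pericyte-like cells thus held Myl9 at the highest level of the list, closely followed by Des. Des, the intermediate filament desmin, had 799 ± 125 CPM (SD, n = 11), followed by fibroblast-like cells with 211 ± 67.3 CPM (SD, n = 9) and pericyte-like cells with 173 ± 34.7 CPM (SD, n = 8), whose ranges overlapped. Myocd, the gene of myocardin, had 350 ± 115 CPM (SD, n = 11), and fibroblast-like and pericyte-like cells followed with 10.9 ± 18.9 (SD, n = 9) and 8.86 ± 4.89 CPM (SD, n = 8). Below the first rank, the ranges of neighbouring populations overlapped for each of the 10 genes at the second and the third rank.
Low levels of Acta2 were found in cells that do not make it. In microglia-like cells the group means of Acta2 ran from 39.7 CPM in the MCAO/R + WT group to 144 CPM in the sham + Lrg1-/- group, and levels of that order were read as background. Acta2 in pericyte-like cells, with a mean of 167 ± 107 CPM (SD, n = 8), was of that order too and was not told apart from background.

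**Figure D1:**
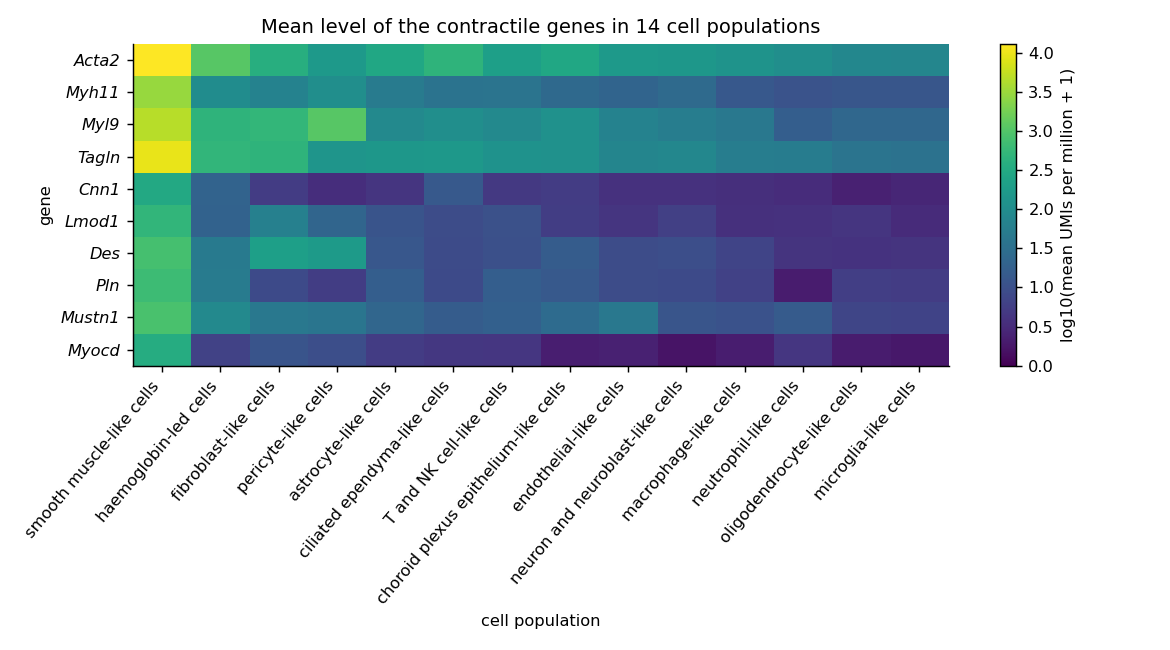
Mean level of each contractile gene (rows) in each cell population (columns), as log10 of the mean CPM plus 1 over mice with at least 20 cells of the population. Smooth muscle-like cells hold the highest level in all 10 rows, 12915.3 CPM for Acta2 and 350 CPM for Myocd.

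The genes whose levels over the 14 populations were most like the mean pattern of the 10 were Jph2 (Pearson r = 0.988), Tpm2 (r = 0.98), Map3k7cl (r = 0.975), Aoc3 (r = 0.959) and Nexn (r = 0.957), out of 3390 genes with at least 50 CPM in smooth muscle-like cells. Jph2 encodes junctophilin, which holds calcium stores to the cell membrane, and Tpm2 a tropomyosin of the thin filament. Nexn encodes nexilin, an actin-binding protein. Map3k7cl was also a marker that named the cells. These values are descriptions over 14 populations from the same 11 libraries.

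In smooth muscle-like cells 6 of the 10 contractile genes were called with surgery in either genotype, and they did not all move one way. Levels of single genes in this and the next paragraphs are CPM on a TMM-adjusted total, in replicate order. Summed levels of marker lists are plain CPM. A gene is called changed at an adjusted p below 0.05 in edgeR's quasi-likelihood test with Benjamini-Hochberg adjustment over all genes tested and a log2 fold change beyond 0.36 in either direction. In the MCAO/R + WT minus sham + WT comparison 6 of 10 genes were called, 4 lower and 2 higher, against a background of 14.1% of 12406 genes (7.12% lower and 6.99% higher). In the MCAO/R + Lrg1-/- minus sham + Lrg1-/- comparison 6 of 10 were called, 5 lower and 1 higher, against 13.7% (6.30% lower and 7.44% higher). The median log2 change of the 10 genes was -0.20 in wild-type and -0.35 in knockout mice, beside -0.01 and 0.01 over all genes. The smooth muscle marker list summed to 8707.5 to 9738.9 CPM in sham + WT and 7026.8 to 7466.0 CPM in MCAO/R + WT mice. In knockout mice it summed to 9034.1 to 12526.3 CPM after sham and 7624.9 to 8466.7 CPM after MCAO/R. The summed level of this list was thus lower after surgery as well. Markers of either mural kind were higher after surgery in wild-type mice (3096.9 to 3575.8, then 3894.0 to 3944.8 CPM). In knockout mice they overlapped (3092.1 to 4165.1 and 2413.7 to 3447.5 CPM). The part of these markers was not tested. The comparisons share libraries in pairs and are given side by side.

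Of the proteins that generate force, Acta2 measured 16180.6, 15119.3 and 14467.9 CPM in the sham + WT mice, 13842.4, 15089.5 and 17710.6 CPM in the sham + Lrg1-/- mice, 10510.1 and 10250.9 CPM in the MCAO/R + WT mice, and 10725.8, 8136.4 and 10176.2 CPM in the MCAO/R + Lrg1-/- mice. Every MCAO/R library lay below every sham library. Acta2 fell by 0.56 on the log2 scale with surgery in wild-type mice (SE 0.14, adjusted p = 0.0149) and by 0.68 in knockout mice (SE 0.12, adjusted p = 0.00187).
Myh11, the smooth muscle myosin heavy chain, measured 3598.4, 3705.3 and 3801.5 CPM in sham + WT, 3283.4, 3613.6 and 3747.9 CPM in sham + Lrg1-/-, 2538.9 and 2745.9 CPM in MCAO/R + WT, and 2893.9, 1373.2 and 1986.8 CPM in MCAO/R + Lrg1-/- mice. Here too the sham and MCAO/R libraries did not overlap, and MCAO/R + Lrg1-/- replicate 2 was the lowest of all. Myh11 fell by 0.77 in knockout mice (SE 0.18, adjusted p = 0.0112), while in wild-type mice its log2 change of -0.49 (SE 0.21) missed the threshold (adjusted p = 0.139).
Myl9 measured 5801.8, 5244.3 and 5312.4 CPM in sham + WT, 4919.0, 5829.7 and 7109.4 CPM in sham + Lrg1-/-, 3381.2 and 3876.1 CPM in MCAO/R + WT, and 3733.9, 2296.6 and 3187.2 CPM in MCAO/R + Lrg1-/- mice. All MCAO/R libraries again lay below all sham libraries. Myl9 fell by 0.59 in wild-type (SE 0.18, adjusted p = 0.0426) and by 0.96 in knockout mice (SE 0.16, adjusted p = 0.00111).

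Pln encodes phospholamban, which restrains the calcium pump of the internal store, and had the widest change of the 10 genes with surgery. It measured 911, 856 and 990 CPM in sham + WT, 964, 957 and 935 CPM in sham + Lrg1-/-, 263 and 280 CPM in MCAO/R + WT, and 497, 197 and 270 CPM in MCAO/R + Lrg1-/- mice. The highest MCAO/R library was well under the lowest sham library. Pln fell by 1.76 on the log2 scale in wild-type mice (SE 0.26, adjusted p = 0.000339) and by 1.61 in knockout mice (SE 0.22, adjusted p = 0.000245), and both calls stood without any 1 library.

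Tagln, Cnn1 and Lmod1, whose proteins sit on the actin filament, are given gene by gene, and their changes were not tested against each other. Tagln, which encodes transgelin, measured 10401.0, 10005.4 and 9785.4 CPM in sham + WT, 7718.4, 8911.7 and 10913.3 CPM in sham + Lrg1-/-, 10154.8 and 11300.9 CPM in MCAO/R + WT, and 7727.3, 8386.7 and 9933.0 CPM in MCAO/R + Lrg1-/- mice. Sham and MCAO/R libraries overlapped in both genotypes, and no comparison called Tagln.
Cnn1, the gene of calponin, which damps the myosin motor, measured 348, 332 and 261 CPM in sham + WT, 299, 261 and 288 CPM in sham + Lrg1-/-, 242 and 134 CPM in MCAO/R + WT, and 326, 324 and 505 CPM in MCAO/R + Lrg1-/- mice. The MCAO/R + WT mice were the lowest and one of the MCAO/R + Lrg1-/- mice the highest. Cnn1 fell by 0.74 with surgery in wild-type mice (SE 0.23, adjusted p = 0.0395), whereas in knockout mice the log2 difference was 0.45 (SE 0.20, adjusted p = 0.156).
Lmod1, the gene of leiomodin, which starts new actin filaments, measured 501, 496 and 436 CPM in sham + WT, 528, 557 and 453 CPM in sham + Lrg1-/-, 630 and 649 CPM in MCAO/R + WT, and 484, 360 and 490 CPM in MCAO/R + Lrg1-/- mice. The MCAO/R + WT mice stood above all others. Its log2 difference with surgery was 0.42 in wild-type (SE 0.14, adjusted p = 0.0544) and -0.22 in knockout mice (SE 0.13, adjusted p = 0.291), and neither was called.

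Des measured 819, 690 and 674 CPM in sham + WT, 682, 764 and 889 CPM in sham + Lrg1-/-, 1011.7 and 1015.7 CPM in MCAO/R + WT, and 765, 718 and 763 CPM in MCAO/R + Lrg1-/- mice. Both MCAO/R + WT mice lay above the 9 other mice. Des rose by 0.48 with surgery in wild-type mice (SE 0.13, adjusted p = 0.0179), and in knockout mice the log2 difference was -0.05 (SE 0.12, adjusted p = 0.834).
Myocd, whose protein is a partner of serum response factor, measured 301, 340 and 422 CPM in sham + WT, 264, 227 and 196 CPM in sham + Lrg1-/-, 512 and 543 CPM in MCAO/R + WT, and 382, 286 and 360 CPM in MCAO/R + Lrg1-/- mice. Within each genotype the MCAO/R libraries lay above the sham libraries. Myocd rose with surgery by 0.57 in wild-type (SE 0.16, adjusted p = 0.0222) and by 0.56 in knockout mice (SE 0.15, adjusted p = 0.0202), opposite in sign to Acta2, Myl9 and Pln.
Mustn1, which encodes a small nuclear protein of the musculoskeletal system, measured 935, 784 and 846 CPM in sham + WT, 879, 929 and 1178.8 CPM in sham + Lrg1-/-, 928 and 903 CPM in MCAO/R + WT, and 754, 594 and 801 CPM in MCAO/R + Lrg1-/- mice. The MCAO/R + Lrg1-/- and sham + Lrg1-/- mice did not overlap. Mustn1 fell by 0.47 in knockout mice (SE 0.13, adjusted p = 0.0281), and its log2 difference in wild-type mice was 0.10 (SE 0.15, adjusted p = 0.735).

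**Figure D2:**
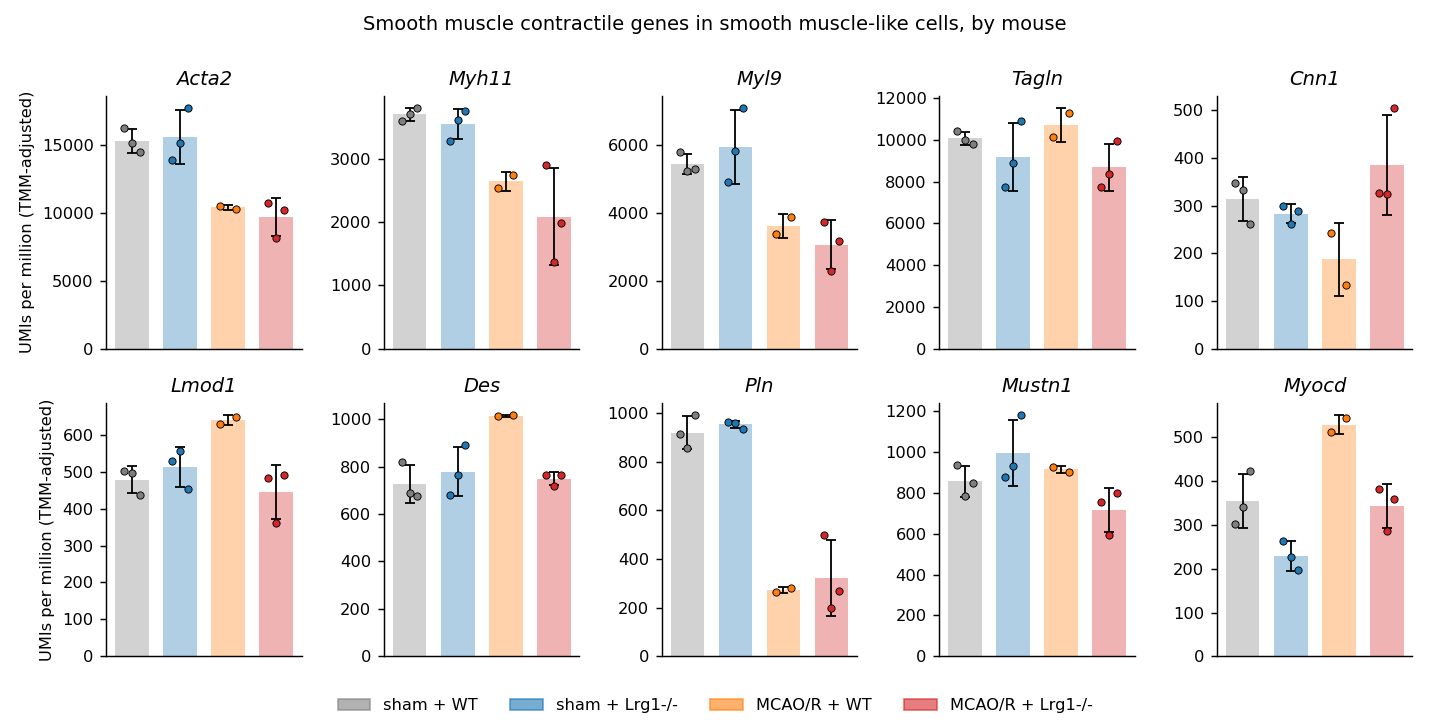
Level of each contractile gene in smooth muscle-like cells, in CPM on a TMM-adjusted total. Points are mice, bars group means and error bars SD (n = 3, 3, 2 and 3 mice from left to right, MCAO/R + WT having 2). Pln lies between 197 and 497 CPM in the MCAO/R mice and between 856 and 990 CPM in the sham mice.

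With groups this small, single libraries decided many of these calls. Fits without an MCAO/R + WT mouse hold a single library of that group, here and in the other paragraphs. Their spread then comes from the other groups alone, so they cannot show how far that group varies. The wild-type count of 6 became 2 without sham + WT replicate 1, 2 without sham + WT replicate 2, 4 without sham + WT replicate 3, 2 without MCAO/R + WT replicate 1 and 1 without MCAO/R + WT replicate 2, and Pln was the gene called in all 5 of these fits. Myl9 was called in 0 of the 5, with adjusted p from 0.0835 to 0.269. Des and Myocd, called higher in wild-type mice, rose by 0.43 to 0.57 and by 0.47 to 0.72 in these fits. Neither call held in all of them. In knockout mice 4 to 6 genes were called when each library in turn was left out, and Acta2, Myh11, Myl9 and Pln were called in all 6 fits. Myocd, the 1 gene called higher in knockout mice, was called in 3 of the 6 (edgeR, adjusted p from 0.0136 to 0.0912).

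**Figure D3:**
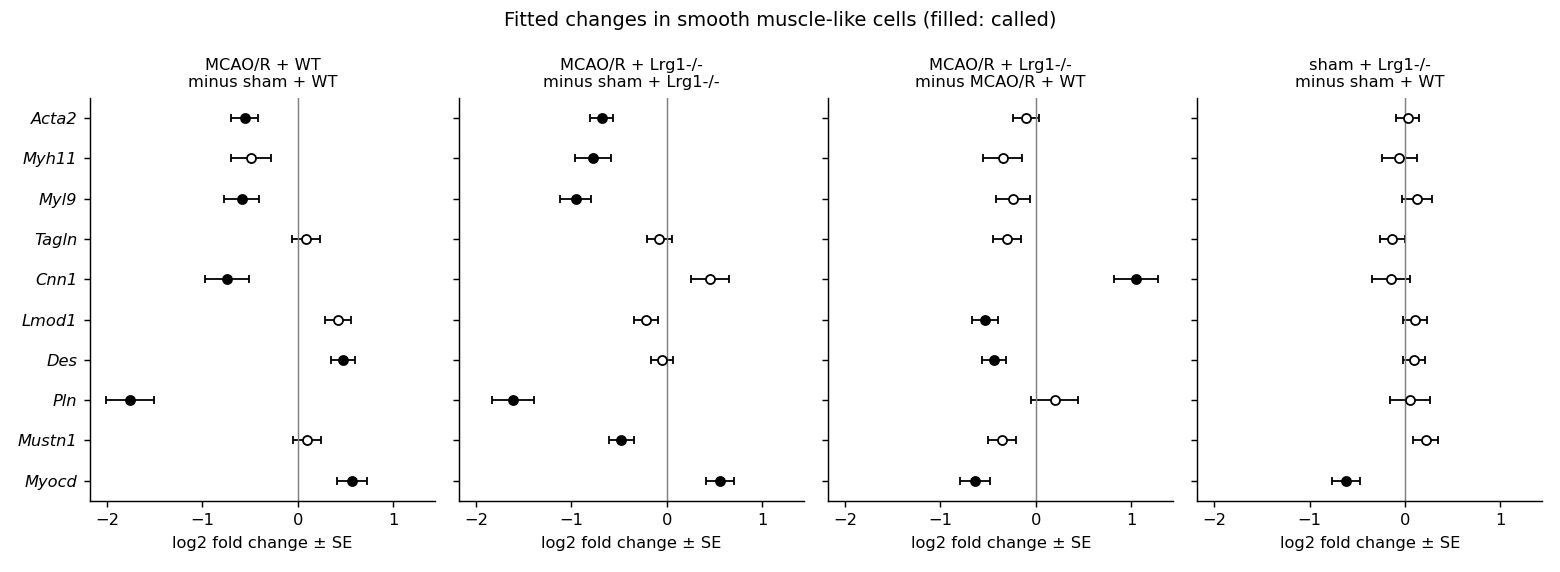
Fitted log2 fold change of each contractile gene in smooth muscle-like cells (x axis, ± SE) in the 4 pairwise comparisons, each named above its panel. Filled points passed the test, and Pln stands farthest to the left in both surgery panels, at -1.76 and -1.61.

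Between genotypes after MCAO/R, 4 of 10 genes were called in smooth muscle-like cells, Cnn1 higher and Des, Lmod1 and Myocd lower in the MCAO/R + Lrg1-/- group. The background was 19.0% of 12406 genes (10.2% higher and 8.84% lower). Cnn1 was 2.06 times as high in the knockout mice (log2 difference 1.05, SE 0.23, adjusted p = 0.00545), and its 3 knockout libraries lay above both wild-type libraries. Des fell by 0.44 (SE 0.13, adjusted p = 0.0248), Lmod1 by 0.53 (SE 0.14, adjusted p = 0.0149) and Myocd by 0.63 (SE 0.16, adjusted p = 0.0114) on the log2 scale, and in each the knockout and wild-type mice did not overlap. The Cnn1 difference therefore ran against those of the other called genes. Beside these, the smooth muscle markers that named the cells summed to 7026.8 to 7466.0 CPM in MCAO/R + WT and 7624.9 to 8466.7 CPM in MCAO/R + Lrg1-/- mice, and markers shared with pericytes to 3894.0 to 3944.8 and 2413.7 to 3447.5 CPM, and their part was not tested.
The remaining 6 genes did not pass the test. Their log2 differences were -0.10 for Acta2, -0.35 for Myh11, -0.24 for Myl9, -0.30 for Tagln, 0.20 for Pln and -0.36 for Mustn1, with adjusted p from 0.108 to 0.659. For Acta2 the SE was 0.14 and for Pln 0.25, against log2 changes of Pln with surgery of -1.76 and -1.61. The median over the 10 genes was -0.33, beside 0.01 over all genes. The count of 4 became 0 without MCAO/R + WT replicate 2, 2 without MCAO/R + WT replicate 1 and 1 without MCAO/R + Lrg1-/- replicate 2, and Cnn1 was called in 4 of these 5 fits (adjusted p from 0.00172 to 0.0913). A fit to the MCAO/R libraries alone called 1 gene, Myocd. Over all alternatives its log2 difference ran from -0.92 to -0.25, with adjusted p up to 0.481.

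In the sham mice Myocd was the 1 gene of 10 called, against a background of 11.9% (5.53% higher and 6.36% lower), so the count lay under the share of all genes. Myocd fell by 0.62 in the sham + Lrg1-/- group (SE 0.15, adjusted p = 0.0118), and the highest knockout mouse, at 264 CPM, lay under the lowest wild-type mouse, at 301 CPM. The call was lost without sham + WT replicate 3, sham + Lrg1-/- replicate 2 or sham + Lrg1-/- replicate 5, with the largest adjusted p of these fits at 0.0788. It was also lost in thinned cells, in cells outside the gate and with a replicate block. Over all alternatives the log2 difference of Myocd ran from -0.99 to -0.26, with adjusted p up to 0.58. Log2 differences of the other 9 genes lay between -0.15 for Cnn1 and 0.22 for Mustn1.
Whether genotype altered the change with surgery was tested as an interaction, where 0.975% of all genes were called. In edgeR 0 of the 10 genes passed, 4 had an unadjusted p below 0.05, and DESeq2 called 1, Cnn1. The interaction was 1.19 for Cnn1 (SE 0.30, adjusted p = 0.0829), -0.64 for Lmod1 (SE 0.19, adjusted p = 0.137), -0.53 for Des (SE 0.17, adjusted p = 0.175) and -0.57 for Mustn1 (SE 0.20, adjusted p = 0.218). Cnn1 was also called without MCAO/R + WT replicate 1 (1 gene) and without MCAO/R + Lrg1-/- replicate 1 (1 gene). A different response of the genotypes was therefore not shown for the 10 genes in the edgeR fit on all libraries.

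Counted cell by cell, Cnn1 and Pln were found in fewer smooth muscle-like cells of the MCAO/R + WT than of the sham + WT mice. Shares of a group pool the cells of its mice, and 586 of the 1013 MCAO/R + Lrg1-/- cells came from replicate 2. The order of the groups by pooled shares did not always match that by summed level. For Pln the pooled order was reversed between the MCAO/R groups, so no order was read from it there. Each cell was thinned to 1000 UMIs to set depths equal. A Cnn1 UMI was then found in 19.8% of cells in the sham + WT group (18.1 to 21.9% by mouse), 19.0% in sham + Lrg1-/- (16.7 to 19.8%), 9.87% in MCAO/R + WT (8.25 to 11.8%) and 21.7% in MCAO/R + Lrg1-/- (20.5 to 24%). Before thinning the shares were 56.7, 50.7, 37.7 and 49.4% at median depths of 11435, 10029.5, 10940 and 7787 UMIs. The MCAO/R + WT mice were the lowest on either count. For Pln the thinned shares were 51.1, 50.1, 21.2 and 18.3%, and MCAO/R + Lrg1-/- mice ranged from 14.7 to 39.7%. In microglia-like cells, which should lack both genes, thinned shares were at most 0.401% for Cnn1 and 1.36% for Pln, at median depths of 4915 to 10439.5 UMIs. A thinned smooth muscle-like cell held 4.68 to 6.21 of the 10 genes on average by mouse, with MCAO/R + Lrg1-/- replicate 2 the lowest.

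The wider apparatus was followed in 4 lists of other genes. The shares of all genes called, 14.1% with surgery in wild-type mice, 13.7% in knockout mice, 19.0% between genotypes after MCAO/R and 11.9% in sham mice, are the background for the counts. Of 22 other contractile genes, 5 were called with surgery in wild-type mice (4 lower) and 8 in knockout mice (all lower), and 7 between genotypes after MCAO/R (6 lower in knockout mice). Of 14 tested genes of calcium and cyclic nucleotide handling, 5 were called lower with surgery in wild-type mice, 11 were called in knockout mice (9 lower), and 5 were called lower in MCAO/R + Lrg1-/- than in MCAO/R + WT mice. Kcnma1, the pore of the large calcium-activated potassium channel that relaxes vessels, fell by 0.98 in wild-type mice (SE 0.18, adjusted p = 0.00181) and by 1.18 in knockout mice (SE 0.17, adjusted p = 0.000285). Its group means were 407 CPM in sham + WT, 307 CPM in sham + Lrg1-/-, 207 CPM in MCAO/R + WT and 140 CPM in MCAO/R + Lrg1-/- mice.
Ldb3, a protein of the anchoring sites of actin, fell by 1.10 with surgery in wild-type mice (SE 0.20, adjusted p = 0.0016), from a mean of 91 to 42.1 CPM. Nexn fell by 1.06 in knockout mice (SE 0.16, adjusted p = 0.00048), from 334 to 167 CPM. Both lie among the contractile list, whose median change was -0.24 in wild-type and -0.30 in knockout mice.
Between genotypes after MCAO/R, Vcl, the gene of vinculin, which ties actin to the membrane, fell by 0.78 in knockout mice (SE 0.13, adjusted p = 0.000836), and in the sham mice it fell by 0.87 (SE 0.12, adjusted p = 0.000377). Ppp1r12b, a subunit of the myosin phosphatase, fell by 0.62 (SE 0.12, adjusted p = 0.00259). Ryr2, a calcium release channel, fell by 0.66 (SE 0.22, adjusted p = 0.0486), a call that was kept in 1 of 5 fits without 1 library each, the adjusted p reaching 0.295.
Kcna5, a voltage-gated potassium channel, fell by 1.23 between genotypes after MCAO/R (SE 0.22, adjusted p = 0.00171) and by 1.24 with surgery in knockout mice (SE 0.21, adjusted p = 0.00122). Between genotypes in the sham mice, 2 of 22 contractile, 1 of 10 transcriptional, 4 of 14 calcium and 1 of 9 phenotype modulation genes were called, and all but the calcium list lay near or under the background of 11.9%. Cacna1c, the pore of the calcium channel that admits calcium for contraction, fell by 0.78 in sham + Lrg1-/- mice (SE 0.12, adjusted p = 0.00105) and Prkg1, the kinase by which cyclic GMP relaxes muscle, by 0.75 (SE 0.12, adjusted p = 0.00143). In cells thinned to 1000 UMIs these differences were -0.40 and -0.39 for Cacna1c and Prkg1, and neither passed (adjusted p = 0.162 and 0.117). Kcnmb1, a subunit of the Kcnma1 channel, rose by 0.66 (SE 0.12, adjusted p = 0.00277), a call lost in 2 of 18 alternatives with adjusted p up to 0.398. Kcnmb1 and Casq2 of the calcium list were also among the markers used to name smooth muscle-like cells, so their tests are not independent of how the cells were defined.

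Of 10 genes of transcriptional control, 3 were called with surgery in wild-type mice (Notch3 and Tbx18 higher, Foxs1 lower), 3 in knockout mice (Mrtfb, Heyl and Tbx18, all higher), and Mrtfa alone between genotypes, lower in knockout mice in both the sham and the MCAO/R comparison. These single calls of 10 genes lie under the 11.9% and 19.0% of all genes called, and the surgery counts stand beside 14.1% and 13.7%. Mrtfa, a further partner of serum response factor, fell by 0.76 in the sham mice (SE 0.16, adjusted p = 0.00524), from a mean of 142 to 82.4 CPM. This call was lost in 2 of 18 alternatives, and in thinned cells the log2 difference was -0.23 (adjusted p = 0.75). The medians of this list with surgery were 0.18 and 0.24.
Of 9 tested genes of phenotype modulation, 5 were higher with surgery in wild-type and 4 in knockout mice, and 0 were lower. Mgp, an inhibitor of calcification, rose by 1.66 in wild-type (SE 0.26, adjusted p = 0.000579) and by 1.34 in knockout mice (SE 0.24, adjusted p = 0.00156). Ly6a, a surface protein also of endothelial cells, rose by 1.61 with surgery in wild-type mice (SE 0.40, adjusted p = 0.0129, lost without sham + WT replicate 1 or MCAO/R + WT replicate 1, with adjusted p up to 0.0678) and by 1.24 between genotypes in sham mice (SE 0.38, adjusted p = 0.0465), the latter called in 0 of 6 fits without 1 library each (adjusted p from 0.0698 to 0.169). Endothelial markers in smooth muscle-like cells summed to 205 to 305 CPM in the sham + WT and 354 to 607 CPM in the sham + Lrg1-/- mice, without overlap, and their part was not tested.
Spp1, the gene of osteopontin, and Lgals3, the gene of galectin 3, are also made by microglia and macrophages. In smooth muscle-like cells Spp1 had 2, 1 and 4 UMIs in the sham + WT mice, 2, 2 and 0 UMIs in the sham + Lrg1-/- mice, 82.8 and 10.5 CPM in the MCAO/R + WT mice and 144, 1113.3 and 337 CPM in the MCAO/R + Lrg1-/- mice. Spp1 rose with surgery in both genotypes (adjusted p = 0.00541 and 6.12e-05, on sham sums of few UMIs) and by 3.58 on the log2 scale between genotypes after MCAO/R (SE 0.72, adjusted p = 0.00302). The size of the Spp1 difference between genotypes rested on single libraries, with 2.46 without MCAO/R + Lrg1-/- replicate 2, 2.74 without MCAO/R + WT replicate 2 and 5.70 without MCAO/R + WT replicate 1, and it was not called in a fit to the MCAO/R libraries alone (adjusted p = 0.0574). Lgals3 rose by 2.34 in wild-type and by 2.82 in knockout mice with surgery (SE 0.29 and 0.27, adjusted p = 8.03e-05 and 2.14e-05) and by 1.09 between genotypes after MCAO/R (SE 0.25, adjusted p = 0.006). The Lgals3 call between genotypes was lost without MCAO/R + WT replicate 2 (adjusted p = 0.0987), and the Spp1 call in wild-type mice without MCAO/R + WT replicate 1 (adjusted p = 0.181).
Levels in microglia-like cells are given beside these. Spp1 there was at 5.13 to 8.67 CPM in sham + WT, at 1.25 to 2.62 CPM in sham + Lrg1-/-, at 47.9 to 1067.8 CPM in MCAO/R + WT and at 1925.9 to 11660.6 CPM in MCAO/R + Lrg1-/- mice. Microglial markers in smooth muscle-like cells summed to 291 to 377, 594 to 730, 188 to 243 and 499 to 743 CPM in the same groups, so they were higher in knockout than in wild-type mice and lower in the MCAO/R + WT than in the sham + WT mice. Macrophage markers summed to 11.8 to 26.1, 28.6 to 35, 11.4 to 18.2 and 21.6 to 49.9 CPM, and neutrophil markers to 5.82 to 8.13, 21.9 to 49.4, 14.2 to 17.7 and 26.5 to 299 CPM. Spp1 was also among the leading genes of the haemoglobin-led cells, at 377 to 3243.1 CPM in MCAO/R + WT and 1450.8 to 9018.7 CPM in MCAO/R + Lrg1-/- mice. The part of RNA from these cells in the Spp1 and Lgals3 values was not tested.

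Pericyte-like cells, the other cells of the small vessel wall, held the contractile genes other than Myl9 at means of at most 173 CPM. That highest mean was the one of Des, and 9 of the 10 genes could be tested. In the MCAO/R + Lrg1-/- minus MCAO/R + WT comparison 1 gene was called, against a background of 7.13% of 11859 genes. Myh11 measured 128 and 183 CPM in the MCAO/R + WT mice and 63.9 and 82.3 CPM in MCAO/R + Lrg1-/- replicates 2 and 5, from 243, 471, 22 and 9 UMIs. The groups did not overlap, and Myh11 fell by 1.18 on the log2 scale (SE 0.32, adjusted p = 0.0296). MCAO/R + Lrg1-/- replicate 1 had 13 pericyte-like cells and did not enter the fit, and of the sham + Lrg1-/- mice replicate 1 alone entered, with 20 cells. The count became 0 without MCAO/R + WT replicate 2, MCAO/R + Lrg1-/- replicate 2 or MCAO/R + Lrg1-/- replicate 5. The Myh11 call was also lost by DESeq2, in a fit to the compared groups alone and in thinned cells. Red blood cell markers in pericyte-like cells summed to 45.3 to 55.1 CPM in MCAO/R + WT and to 48214.3 to 57927.3 CPM in MCAO/R + Lrg1-/- mice, and their part was not tested.
With surgery in wild-type mice Myl9 was the 1 gene of the list called in pericyte-like cells, against 4.79% of all genes. It fell by 0.90 (SE 0.17, adjusted p = 0.00244), from 1406.7 to 1503.4 CPM in the sham + WT mice to 677 to 869 CPM in the MCAO/R + WT mice. Without each of the 5 libraries in turn Myl9 stayed lower in pericyte-like cells. In smooth muscle-like cells its log2 difference in such fits was -0.70 to -0.49. The populations were fitted apart, and a difference between them was not tested. The other 8 tested genes had log2 differences from -0.80 for Mustn1 to 0.52 for Lmod1 and did not pass, and without MCAO/R + WT replicate 1 the count was 4 (Myl9, Mustn1 and Acta2 lower, Myh11 higher). In the same cells smooth muscle markers summed to 1476.9 to 1614.1 CPM in sham + WT and 852 to 1006.3 CPM in MCAO/R + WT mice, and pericyte markers to 23124.7 to 23717.2 and 14230.9 to 18248.2 CPM, and their part was not tested. Pln had 17 UMIs in sham + WT, 14 in MCAO/R + WT and 0 in MCAO/R + Lrg1-/- pericyte-like cells, too few for a fold, and Cnn1 had 5, 6 and 2 UMIs.

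A gate on pericyte genes gave another answer than the clusters did. Gated mural cells were all cells, of any cluster, with a UMI of at least 2 of Kcnj8, Abcc9, Atp13a5, Higd1b and Vtn, and numbered 7038. By cluster 25% of them were pericyte-like, 17% smooth muscle-like, 12.7% haemoglobin-led and 10.7% endothelial-like. In the MCAO/R + Lrg1-/- minus MCAO/R + WT comparison 5 of 10 genes were called in the gated cells, all higher, against a background of 16.8% of 16008 genes (10.8% higher). Cnn1 stood at 5.94 and 2.63 CPM in the MCAO/R + WT mice and at 35.1, 30.9 and 27.7 CPM in the MCAO/R + Lrg1-/- mice, with no overlap. The called genes were Cnn1 (log2 difference 2.88, SE 0.32, adjusted p = 0.00391), Pln (1.53, SE 0.43, adjusted p = 0.0335), Acta2 (1.48, SE 0.30, adjusted p = 0.0156), Mustn1 (0.99, SE 0.29, adjusted p = 0.038) and Myl9 (0.90, SE 0.27, adjusted p = 0.0444). Of these, Cnn1 was also called higher in smooth muscle-like cells, where Acta2, Mustn1 and Myl9 had differences of the opposite sign that did not pass the test. The genes not called in the gated cells were Tagln (0.95, adjusted p = 0.0672), Des (0.68, adjusted p = 0.0996), Myh11 (0.37, adjusted p = 0.49), Lmod1 (0.33, adjusted p = 0.582) and Myocd (0.06, adjusted p = 0.95).
Acta2 measured 573 and 608 CPM in the gated cells of the MCAO/R + WT mice and 1843.1, 1379.5 and 1721.4 CPM in those of the MCAO/R + Lrg1-/- mice. In smooth muscle-like cells the MCAO/R + WT mice, at 10250.9 and 10510.1 CPM, lay within the range of the MCAO/R + Lrg1-/- mice, 8136.4 to 10725.8 CPM. The level in gated cells was lower than in smooth muscle-like cells in all 5 mice.
The make-up of the gated cells moved with the genotype. Pericyte-like cells made up 40.8 and 46.7% of the gated cells in the MCAO/R + WT mice and 3.86 to 13.6% in the MCAO/R + Lrg1-/- mice, smooth muscle-like cells 9.71 and 11.8% against 6.82 to 29.3%, and haemoglobin-led cells 0.482 and 0.733% against 6.55 to 53.3%. Smooth muscle markers summed to 1021.9 to 1116.9 CPM in the gated cells of the MCAO/R + WT mice and to 2029.8 to 2312.2 CPM in those of the MCAO/R + Lrg1-/- mice. Red blood cell markers summed to 90.7 to 118 and to 18188.1 to 34806.2 CPM. Choroid plexus epithelium-like cells made up 0.321 and 0.855% of the gated cells in the MCAO/R + WT and 1.63 to 39.2% in the MCAO/R + Lrg1-/- mice. Their markers summed to 1471.0 to 8387.4 and to 17902.7 to 78940.6 CPM, and pericyte markers to 2949.1 to 3833.5 and to 1107.5 to 1825.9 CPM. The part of this make-up in the gated result was not tested.
The gated count also depended on the libraries. It became 1 without MCAO/R + WT replicate 1 or replicate 2, with Cnn1 called each time, 3 without MCAO/R + Lrg1-/- replicate 1 and 0 in a fit to the MCAO/R libraries alone. With at least 3 of the 5 gate genes asked for it was 0, and with the gated cells of smooth muscle-like and pericyte-like clusters alone it was 9. That last set held 218 smooth muscle-like and 916 pericyte-like cells in the MCAO/R + WT group. In the MCAO/R + Lrg1-/- group it held 289 and 133, and the part of this make-up was not tested.

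In the sham + Lrg1-/- minus sham + WT comparison 3 of 10 genes were called in the gated cells, all higher, against a background of 32.3% (18.2% higher), so the share called was near that of all genes. Myocd had a log2 difference of -0.68 (SE 0.55, adjusted p = 0.357), which did not pass. They were Mustn1 (1.18, SE 0.25, adjusted p = 0.00862), Acta2 (0.87, SE 0.26, adjusted p = 0.0257) and Myl9 (0.81, SE 0.24, adjusted p = 0.0254), each also called after MCAO/R. Smooth muscle markers in the gated cells summed to 3703.9 to 4951.3 CPM in the sham + Lrg1-/- mice, beside 2492.5 to 3938.8 CPM in the sham + WT mice, and red blood cell markers to 17249.1 to 92635.6 beside 56 to 444 CPM. Pericyte-like cells made up 1.8 to 4.32% of the gated cells in the sham + Lrg1-/- and 24.2 to 38% in the sham + WT mice, and choroid plexus epithelium-like cells 18 to 26.6% and 0.519 to 1.8%. The part of this make-up was not tested. In edgeR the interaction of genotype and surgery called 0 of the 10 genes in gated cells (0.00% of all genes), with 1 at an unadjusted p below 0.05, and DESeq2 called 1, Cnn1, so in edgeR a difference particular to MCAO/R was not shown. The sham count was 1 without sham + WT replicate 1, sham + WT replicate 2, sham + Lrg1-/- replicate 1 or sham + Lrg1-/- replicate 2, 2 without sham + Lrg1-/- replicate 5 and 5 without sham + WT replicate 3.

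With surgery in wild-type mice 6 genes were called in the gated cells, all lower, against a background of 2.31% of 16008 genes (0.875% lower). Pln fell by 3.27 (SE 0.46, adjusted p = 0.00466), Cnn1 by 2.97 (SE 0.32, adjusted p = 0.00168), Acta2 by 2.22 (SE 0.31, adjusted p = 0.00466), Myh11 by 1.75 (SE 0.39, adjusted p = 0.0403), Myl9 by 1.75 (SE 0.28, adjusted p = 0.00927) and Tagln by 1.45 (SE 0.34, adjusted p = 0.0484) on the log2 scale. Tagln measured 1309.9, 1600.4 and 2530.0 CPM in the gated cells of the sham + WT mice and 629 and 696 CPM in those of the MCAO/R + WT mice, while in smooth muscle-like cells its groups overlapped. Smooth muscle-like cells made up 10.6 to 31% of the gated cells in sham + WT and 9.71 and 11.8% in MCAO/R + WT mice, with overlap. Pericyte-like cells made up 24.2 to 38% in sham + WT and 40.8 and 46.7% in MCAO/R + WT mice, without overlap. Smooth muscle markers in the gated cells summed to 2492.5 to 3938.8 CPM in sham + WT and 1021.9 to 1116.9 CPM in MCAO/R + WT mice. The part of this make-up was not tested. The count was 1 without MCAO/R + WT replicate 1 and 3 without MCAO/R + WT replicate 2, and 3 with at least 3 gate genes.
With surgery in knockout mice 4 genes were called in the gated cells, all lower, against a background of 2.13% (0.968% lower). Pln fell by 2.43 (SE 0.38, adjusted p = 0.0124), Myh11 by 1.70 (SE 0.34, adjusted p = 0.0293), Myl9 by 1.66 (SE 0.24, adjusted p = 0.0109) and Acta2 by 1.61 (SE 0.26, adjusted p = 0.0146). These 4 genes were also called lower with surgery in gated cells of wild-type mice. Smooth muscle markers in the gated cells summed to 3703.9 to 4951.3 CPM in the sham + Lrg1-/- and 2029.8 to 2312.2 CPM in the MCAO/R + Lrg1-/- mice, without overlap, and their part was not tested. The knockout count was 0 without sham + Lrg1-/- replicate 2 or MCAO/R + Lrg1-/- replicate 2, 1 without MCAO/R + Lrg1-/- replicate 5 and 2 without sham + Lrg1-/- replicate 1.

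**Figure D4:**
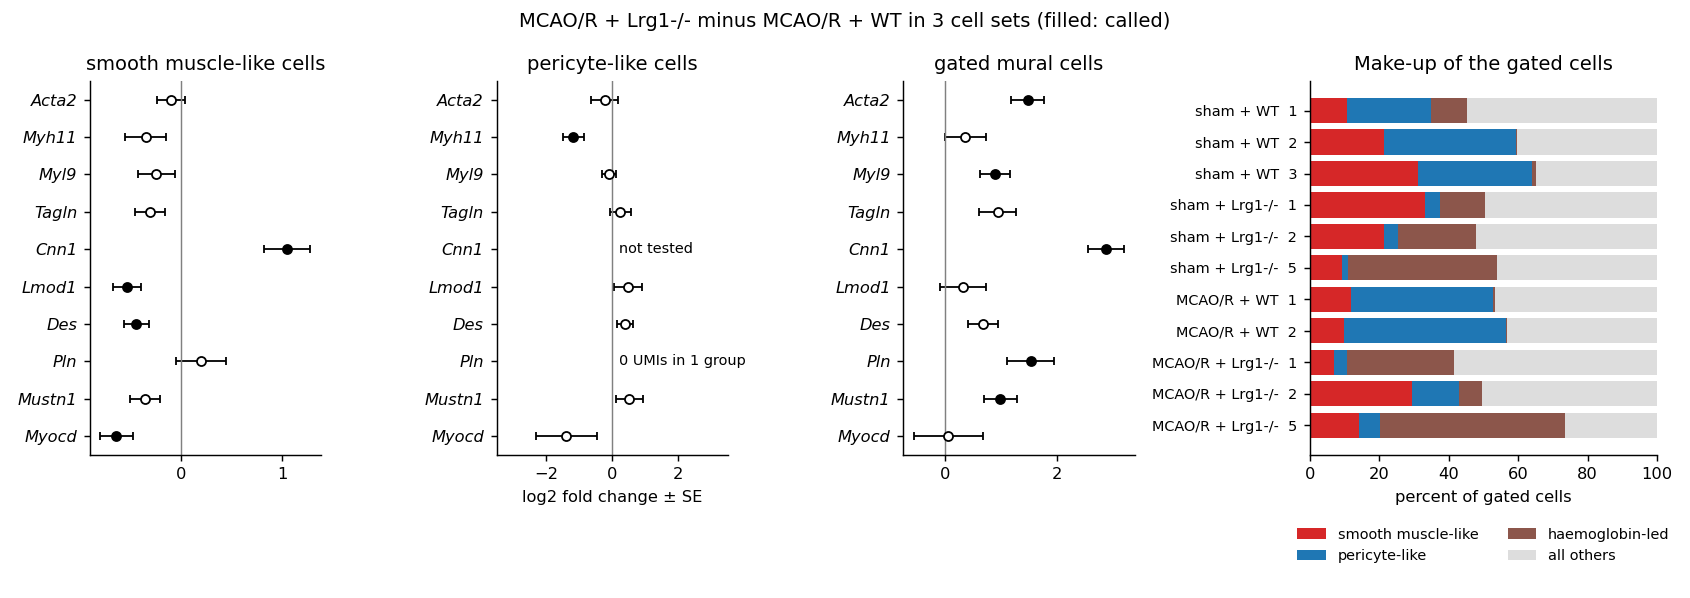
Left panels show the fitted log2 fold change (x axis, ± SE) of each contractile gene in MCAO/R + Lrg1-/- minus MCAO/R + WT mice in smooth muscle-like, pericyte-like and gated mural cells, with filled points past the test, an axis range of its own for each panel, and Cnn1 and Pln not drawn in pericyte-like cells. The right panel shows the percent of each mouse's gated cells by cluster, where pericyte-like cells make up 40.8 and 46.7% in MCAO/R + WT and 3.86 to 13.6% in MCAO/R + Lrg1-/- mice.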

How the data were processed

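Brain cells of 11 mice were profiled by droplet single-cell RNA sequencing (10x Genomics, 3′). The authors deposited 1 filtered matrix of UMI counts per mouse, which are raw counts per gene and barcode without normalization. Per the file headers they were written by Cell Ranger 7.0.1, and the submitters' processing notes also name STAR and mm10. Libraries shared at most 146 barcodes in any pair, and at most 1.15% of the smaller library in any pair.

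Cells with more than 500 genes, more than 1000 UMIs and under 25% mitochondrial UMIs were kept, giving 132437, and 7093 called doublets were removed. Doublets were called by the automatic threshold of Scrublet, a doublet-scoring tool, or, where that called under 0.5%, as the 6% with the highest scores. The second rule applied to sham + WT replicate 1, sham + Lrg1-/- replicates 2 and 5 and MCAO/R + Lrg1-/- replicates 1 and 5. The doublet rule therefore differed in part with genotype. Clusters (scanpy 1.11.5, leidenalg 0.10.2; 2000 variable genes, 15 components) were built without the 10 contractile genes and named from marker lists, by a rule set after the clusters were seen. Sub-clusters that mixed mural and other markers were left unnamed. UMIs were summed per mouse and population, and mice with at least 20 cells entered the fits. Gene differences were tested with edgeR 4.0.16 (TMM, filterByExpr, quasi-likelihood, all 4 groups in 1 fit, two-sided, Benjamini-Hochberg). Levels over populations and all summed marker levels are plain CPM, and levels of single genes in tested populations CPM on TMM-adjusted totals. In gated cells the factors that adjust the totals were 1.10 to 1.20 in wild-type and 0.75 to 0.999 in knockout libraries. Marker sums and gene levels there are therefore not on the same scale. Counting intervals and limits cover counting error only. In the main fits p-values weigh a group difference against a spread between mice that is shared over all 4 groups and moderated across genes.

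All 10 genes were named in the comparisons of smooth muscle-like cells, with up to 6 called genes of the wider lists by size of change and the 5 genes most like the list over populations. The members and lists were chosen with earlier results of these data known. Scripts were tested on simulated data. Alternatives were DESeq2 1.42.0, other filters, gates and cell sets, thinned cells, a replicate block and each library left out. Cells inside or outside the gate, and gated cells of mural clusters, were alternatives chosen after seeing the data. Figures used matplotlib 3.10.9.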

Additional observations from a re-analysis of the deposited data

Results flagged for a closer look

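Kcna5, which encodes a voltage-gated potassium channel of arterial muscle and belongs to the calcium and cyclic nucleotide list, was singled out because its change with surgery differed between the genotypes. In smooth muscle-like cells it measured 39.7, 42.3 and 51.8 CPM in the sham + WT mice, 48.4, 65.8 and 58 CPM in the sham + Lrg1-/- mice, 42.2 and 69.6 CPM in the MCAO/R + WT mice, and 30.9, 21.1 and 24.5 CPM in the MCAO/R + Lrg1-/- mice. The MCAO/R + Lrg1-/- mice lay below all others. The interaction of genotype and surgery was -1.56 on the log2 scale (SE 0.29, adjusted p = 0.02, edgeR). The call stood in 6 of 11 fits that left out 1 library each (log2 -1.87 to -1.15, adjusted p from 0.0059 to 0.147). It was lost without sham + WT replicate 1 or 2, sham + Lrg1-/- replicate 2, MCAO/R + WT replicate 2 or MCAO/R + Lrg1-/- replicate 2, and also in smooth muscle-like cells outside the gate (-1.19, adjusted p = 0.217).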

How the results depend on the processing

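Over the alternatives of 8 comparisons (5 in smooth muscle-like cells, between genotypes after MCAO/R in pericyte-like and gated cells, and wild-type surgery in gated cells), 1362 fitted log2 differences of the 10 genes were recomputed. Of these, 1175 kept their side of the threshold and their sign, 116 were called before and no longer passed, 28 newly passed, and 43 that were never called changed sign. No called difference was reversed in these. The 1362 also hold differences that were not called in the main fits, so 116 out of 1362 is not the share of calls lost. For the named genes of the wider lists 442 differences were recomputed, of which 406 were the same in call and sign, 36 were no longer called and 0 were reversed. In smooth muscle-like cells the count called after MCAO/R between genotypes was 4, with 0 to 5 when each library was left out and 1 in a fit to the compared groups alone. The sham count of 1 became 0 to 1 without single libraries, and 0 in thinned cells and outside the gate. The wild-type surgery count of 6 became 1 to 4 without single libraries and 4 to 8 under the other alternatives, and the knockout count of 6 became 4 to 6 and 5 to 7. The interaction count of 0 was 1 by DESeq2, 2 with no filter on low counts (Lmod1 and Cnn1), 1 in thinned cells and 0 to 1 without single libraries. In pericyte-like cells the count of 1 became 0 by DESeq2, in a fit to the compared groups alone and in thinned cells, and 0 to 1 without single libraries. In gated cells the count of 5 between genotypes became 0 in a fit to the compared groups alone, 0 with 3 of 5 gate genes, 9 in gated cells of the smooth muscle-like and pericyte-like clusters, and 1 to 4 without single libraries, and the surgery count of 6 became 3 with 3 of 5 gate genes and 1 to 5 without single libraries. In gated cells the sham count of 3 became 1 with no filter on low counts, 2 with 3 of 5 gate genes, 5 in thinned cells and 8 in gated cells of mural clusters, and 1 to 5 without single libraries. The knockout surgery count of 4 became 3 to 6 under the other alternatives without a block and 0 to 5 without single libraries. The cause of these moves was not tested, beyond the fewer libraries or cells that some of the fits hold.

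Whether replicate numbers pair the mice was not settled. In smooth muscle-like cells, deviations from the group mean correlated at -0.214 to 0.042 over 13 pairs of same-numbered mice. Those of other mice correlated at -0.052 to 0.214 over 32 pairs. Deviations from a group mean cancel out within the group, so the MCAO/R + WT mice mirror each other and the check cannot decide on pairing. With a replicate block the counts in smooth muscle-like cells were 5 between genotypes after MCAO/R, 0 in sham mice, 4 and 6 with surgery in wild-type and knockout mice and 0 for the interaction. In pericyte-like cells the block gave 1, and in gated cells 1 between genotypes after MCAO/R, 1 in sham mice, and 2 with surgery in either genotype. In pericyte-like cells 1 sham + Lrg1-/- mouse had enough cells to be fitted.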
